A study of Mus musculus with 9 samples.

Results

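The genes described here are 33 transcripts named for the choroid plexus epithelium, chosen as the rows of the authors' count table that carry these symbols, out of 54513 rows in all. All 33 were present. They were followed in 9 RNA-seq libraries of mouse tissue labelled as hippocampus, from 3 groups of 3 mice that were all fed a high-fat diet for 12 weeks. The Trp group ate it with 0.5% by weight of added tryptophan, an essential amino acid. The IPA group ate the high-fat diet and was gavaged every day with indole-3-propionic acid, a product that gut bacteria make from tryptophan, at 100 mg per kg body weight in saline. The HFD group had the high-fat diet alone, and none of the 9 mice ate ordinary chow. The labels give no strain, sex or age, and they do not say whether the HFD or Trp mice were gavaged with saline. The count columns are headed by codes that the sample labels list without saying what they stand for, and the grouping rests on that listing.

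The choroid plexus hangs in the brain ventricles as a sheet of cuboidal epithelium over a vascular stroma, and it secretes the cerebrospinal fluid. Its cells move sodium, chloride, bicarbonate and water across a barrier of tight junctions, and they release carrier proteins such as transthyretin into the fluid. The lateral ventricle's plexus lies against the fimbria of the hippocampus, so a dissected hippocampus can carry a strip of it. In bulk tissue, fewer epithelial cells and less RNA per cell cannot be told apart.

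The promoters of 6 of these genes are shown because the genes differed in how closely they followed transthyretin from library to library: Mfrp, Slc4a5 and Cldn2 followed it most closely, Abca4 and Ace less so, and Otx2 encodes the homeodomain factor of choroid plexus identity. The sequences are the 250 bases before an annotated start, from RefSeq on build GRCm38.p6, written along the gene's own strand. Ace had 2 annotated promoters and Otx2 had 4, and for each a promoter with the letters described next was picked for display. The other genes shown had 1 promoter each. Capitals mark the letters TAATCC, the core that OTX-type homeodomain proteins recognise, or GGATTA where the match is on the other strand.
Mfrp (chr9:44101520-44101769, + strand): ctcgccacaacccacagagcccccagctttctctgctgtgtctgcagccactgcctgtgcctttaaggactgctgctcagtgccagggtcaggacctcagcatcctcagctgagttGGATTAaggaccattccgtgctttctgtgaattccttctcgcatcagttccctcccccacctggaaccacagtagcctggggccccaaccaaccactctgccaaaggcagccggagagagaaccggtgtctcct
Slc4a5 (chr6:83237125-83237374, + strand): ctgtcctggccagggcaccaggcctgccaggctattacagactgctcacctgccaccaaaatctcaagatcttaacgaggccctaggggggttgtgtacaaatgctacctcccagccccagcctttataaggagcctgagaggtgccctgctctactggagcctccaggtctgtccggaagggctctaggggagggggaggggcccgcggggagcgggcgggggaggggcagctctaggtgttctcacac
Cldn2 (chrX:139800558-139800807, + strand): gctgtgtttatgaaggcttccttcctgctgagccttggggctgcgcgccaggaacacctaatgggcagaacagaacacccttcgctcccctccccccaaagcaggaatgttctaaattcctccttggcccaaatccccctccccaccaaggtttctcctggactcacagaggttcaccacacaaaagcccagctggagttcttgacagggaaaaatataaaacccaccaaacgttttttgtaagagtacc
Abca4 (chr3:122044210-122044459, + strand): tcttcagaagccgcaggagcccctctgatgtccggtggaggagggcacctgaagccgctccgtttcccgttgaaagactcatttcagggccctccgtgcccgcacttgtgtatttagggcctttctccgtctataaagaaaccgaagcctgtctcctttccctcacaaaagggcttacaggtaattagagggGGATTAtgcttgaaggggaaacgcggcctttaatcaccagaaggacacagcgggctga
Ace (chr11:105967698-105967947, + strand): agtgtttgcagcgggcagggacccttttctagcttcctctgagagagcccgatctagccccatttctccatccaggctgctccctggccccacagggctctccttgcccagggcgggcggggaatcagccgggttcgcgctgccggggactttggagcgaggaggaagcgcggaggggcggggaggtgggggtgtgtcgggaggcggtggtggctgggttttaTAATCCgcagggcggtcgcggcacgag
Otx2 (chr14:48665110-48665359, - strand): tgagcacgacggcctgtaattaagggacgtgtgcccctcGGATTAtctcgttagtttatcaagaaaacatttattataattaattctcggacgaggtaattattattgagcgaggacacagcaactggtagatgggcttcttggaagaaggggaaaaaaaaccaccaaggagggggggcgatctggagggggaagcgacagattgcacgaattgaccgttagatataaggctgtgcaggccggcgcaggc
Of the 33 genes 25 matched at least 1 promoter of 300 bases in the table by symbol. Of these, 4 (16.0%) held the letters on either strand in at least 1 promoter, against 8.14% of 27025 genes counted in the same way. The 4 were Mfrp, Abca4, Ace and Otx2, all among the 6 shown, with the first letter 134, 58, 27 and 211 bases before the start of the promoter shown. The 6 shown thus include every gene of the list found to hold the letters, and they do not represent the list in that respect. Slc4a5 and Cldn2, the genes of the list closest to the transthyretin pattern after Mfrp, had no such letters in this window. Folr1, Clic6, Enpp2, Sostdc1, Lbp, Col9a3, Sulf1 and Ttr had no entry.

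Total counts ran from 40621084 to 50938746 per library, and 18690 genes, all 33 choroid plexus genes among them, passed the filter on low counts. Values are CPM, counts scaled to the library size after TMM correction, unless FPKM is named. Where no read was counted the level could still reach 0.0584 to 0.0751 CPM, depending on the library. HFD 3 stood apart in other tissues' transcripts. Its red cell genes summed to 2213 CPM, where the remaining 8 libraries held 234 to 732 CPM, and its striatal genes to 897 CPM, where the remaining 8 held 1806 to 3859.7 CPM. Hippocampal markers were present in every library, as Prox1 of dentate granule cells at 10.3 to 42.3 CPM, and the dopamine receptor gene Drd1 of striatal neurons was detected in all 9 too, at 20.5 to 102 CPM.

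Choroid plexus transcripts differed mainly from mouse to mouse within each group. Ttr encodes transthyretin, the carrier of thyroxine and of retinol-binding protein that the epithelium secretes into the fluid, and it was measured at 1288, 563 and 25.7 CPM in Trp 1 to 3, 257, 1087 and 752 CPM in IPA 1 to 3, and 194, 113 and 642 CPM in HFD 1 to 3. Each group held both a high and a low library, and the groups overlapped. The highest library, Trp 1, and the lowest, Trp 3, were of the same group and differed 50.1-fold. On the length-scaled FPKM, Ttr was also the most abundant of the 33, with a mean level of 416 FPKM, followed by Enpp2 at 98.9 FPKM and Igfbp2 at 18.5 FPKM. Ttr made up 52.3%, 48.9% and 6.29% of the summed counts of the 33 genes in Trp 1 to 3.

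**Figure D1:**
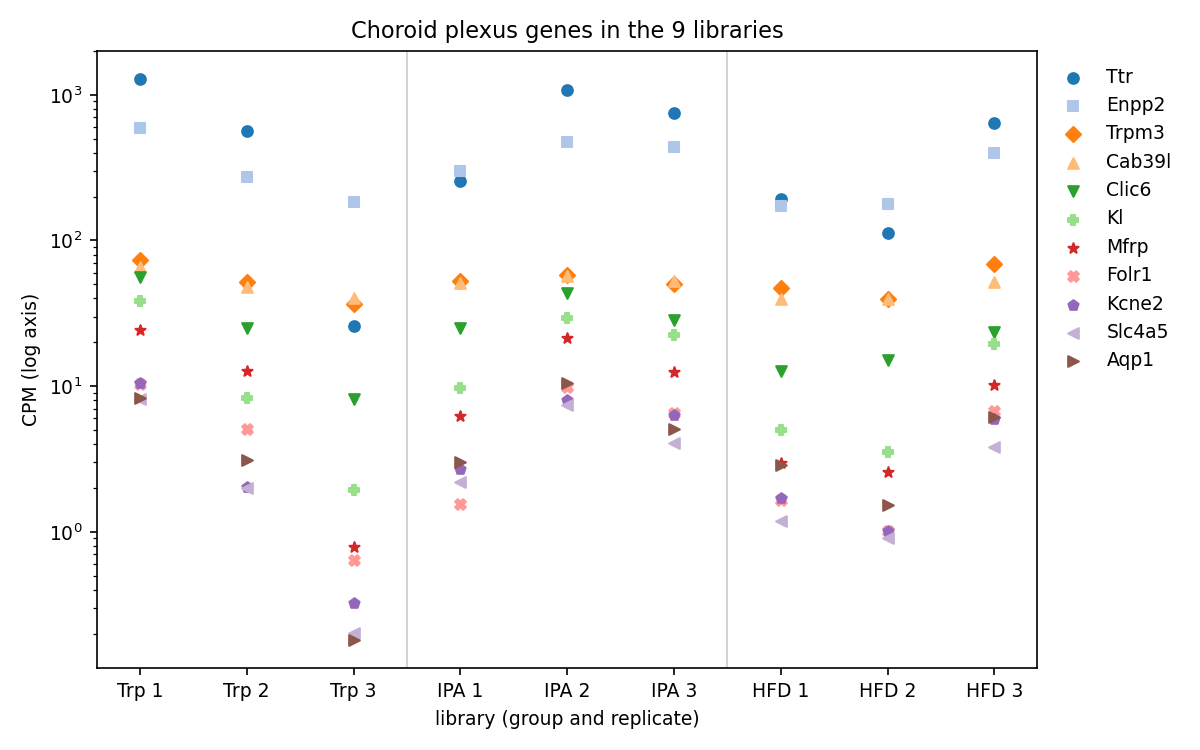
Level of 11 of the 33 choroid plexus genes (CPM, log axis) in each of the 9 libraries, 1 point per gene and library, with grey lines between the groups. Most genes are high in Trp 1, IPA 2, IPA 3 and HFD 3 and low in Trp 3, HFD 1 and HFD 2, as Ttr, which spans 25.7 to 1288 CPM over the libraries, while Trpm3 and Cab39l vary less.

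Most other secreted factors were also high in Trp 1 and low in Trp 3, over ranges of different width. Kl, which encodes klotho, a co-receptor for FGF23 that is also shed into the fluid, stood at 38.5, 8.33 and 1.93 CPM in Trp 1 to 3, 9.68, 29.5 and 22.4 CPM in IPA 1 to 3, and 5.01, 3.53 and 19.6 CPM in HFD 1 to 3. Sostdc1, a secreted antagonist of BMP and Wnt signals, stood at 10.03, 3.04 and 0.585 CPM in Trp 1 to 3, 3.10, 7.40 and 5.25 CPM in IPA 1 to 3, and 1.41, 1.29 and 5.41 CPM in HFD 1 to 3. F5, coagulation factor V, was measured at 10.7, 2.35 and 0.544 CPM in Trp 1 to 3, 2.90, 8.41 and 6.05 CPM in IPA 1 to 3, and 1.16, 1.19 and 6.46 CPM in HFD 1 to 3. All 3 were highest in Trp 1 and lowest in Trp 3, by 19.9-fold, 17.2-fold and 19.7-fold. Lbp, the lipopolysaccharide-binding protein, reached 8.42, 4.19 and 0.806 CPM in Trp 1 to 3, 1.65, 6.02 and 5.48 CPM in IPA 1 to 3, and 1.37, 1.49 and 3.99 CPM in HFD 1 to 3. Enpp2 encodes autotaxin, which makes lysophosphatidic acid and is also made by oligodendrocytes, and it stood at 594, 274 and 184 CPM in Trp 1 to 3, 302, 474 and 442 CPM in IPA 1 to 3, and 173, 179 and 398 CPM in HFD 1 to 3. Igfbp2, an insulin-like growth factor binding protein also made by astrocytes and leptomeninges, was at 37.1, 23.2 and 21.1 CPM in Trp 1 to 3, 20.02, 33.8 and 26 CPM in IPA 1 to 3, and 26.5, 16.8 and 34.6 CPM in HFD 1 to 3. Enpp2 and Igfbp2 spanned 3.43-fold and 2.20-fold over the 9 libraries, less than the 10.4-fold of Lbp, and their values in the low libraries stayed well above 0.

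Receptors and surface enzymes differed in the width of their range. Folr1, the folate receptor alpha that carries folate into the fluid, was measured at 10.4, 5.08 and 0.645 CPM in Trp 1 to 3, 1.55, 9.91 and 6.52 CPM in IPA 1 to 3, and 1.65, 1.01 and 6.74 CPM in HFD 1 to 3. Prlr, the prolactin receptor, stood at 15.4, 8.83 and 2.60 CPM in Trp 1 to 3, 6.53, 16 and 12.3 CPM in IPA 1 to 3, and 3.19, 2.87 and 12.6 CPM in HFD 1 to 3. Both had low values in HFD 1, HFD 2 and Trp 3, and Folr1 was also low in IPA 1. Ace, the angiotensin-converting enzyme, which striatal neurons express too, stood at 30.2, 16.9 and 11.4 CPM in Trp 1 to 3, 13.3, 30.8 and 22.1 CPM in IPA 1 to 3, and 10.5, 11.6 and 16 CPM in HFD 1 to 3. Ace spanned 2.92-fold, against 16.1-fold for Folr1.

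Genes of ion, water and solute transport included the widest ranges of the list. Aqp1, the water channel of the apical membrane, was measured at 8.28, 3.11 and 0.181 CPM in Trp 1 to 3, 3.003, 10.4 and 5.11 CPM in IPA 1 to 3, and 2.87, 1.53 and 6.10 CPM in HFD 1 to 3. It was the widest range of the 33, 57.5-fold, and rested on 9 counts in Trp 3. Cldn2, the claudin that forms cation and water pores in leaky epithelia, stood at 10.2, 1.84 and 0.202 CPM in Trp 1 to 3, 1.95, 7.35 and 3.59 CPM in IPA 1 to 3, and 1.13, 0.868 and 4.27 CPM in HFD 1 to 3. Slc4a5, the sodium bicarbonate cotransporter NBCe2, stood at 8.18, 1.99 and 0.202 CPM in Trp 1 to 3, 2.20, 7.40 and 4.09 CPM in IPA 1 to 3, and 1.18, 0.908 and 3.80 CPM in HFD 1 to 3. Each of these 2 gave 10 counts in Trp 3 and was highest in Trp 1. Kcnj13, the inward rectifier potassium channel Kir7.1, was at 6.23, 2.59 and 0.322 CPM in Trp 1 to 3, 1.65, 5.70 and 4.09 CPM in IPA 1 to 3, and 0.664, 0.605 and 2.85 CPM in HFD 1 to 3. Kcne2, a subunit that modifies potassium channels, was at 10.5, 2.04 and 0.322 CPM in Trp 1 to 3, 2.68, 7.99 and 6.36 CPM in IPA 1 to 3, and 1.71, 1.01 and 5.94 CPM in HFD 1 to 3. In both genes Trp 1 and IPA 2 were the highest libraries and Trp 3 the lowest. Gigyf2 on the opposite strand shares 49.1% of the annotated exon bases of Kcnj13, and the library protocol describes no strand marking, so reads of the 2 genes cannot be told apart there. Clic6, a chloride intracellular channel protein, stood at 56.1, 25.1 and 8.14 CPM in Trp 1 to 3, 25, 43.8 and 28.2 CPM in IPA 1 to 3, and 12.8, 15.1 and 23.5 CPM in HFD 1 to 3. The 3 IPA libraries all lay above the 3 HFD libraries for Clic6, the lowest IPA value being 25 CPM and the highest HFD value 23.5 CPM.

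Car12, Trpm3 and Slc29a4 varied less than most of the list. Car12, a carbonic anhydrase at the cell surface, was measured at 27.6, 22.1 and 21.6 CPM in Trp 1 to 3, 20.5, 31.9 and 39 CPM in IPA 1 to 3, and 17.1, 23.3 and 19.3 CPM in HFD 1 to 3. Trpm3, a cation channel also found in neurons, stood at 73.9, 51.6 and 36.4 CPM in Trp 1 to 3, 52.7, 57.9 and 50.1 CPM in IPA 1 to 3, and 46.8, 39.6 and 68.6 CPM in HFD 1 to 3. Slc29a4, the plasma membrane monoamine transporter, which neurons also express, stood at 9.80, 7.66 and 7.16 CPM in Trp 1 to 3, 6.13, 10.5 and 8.16 CPM in IPA 1 to 3, and 11.2, 6.50 and 12.7 CPM in HFD 1 to 3. Their ranges were 2.28-fold, 2.03-fold and 2.07-fold, and Trp 3 was the lowest library of Trpm3 but not of Car12 or Slc29a4. Slc29a4 was highest in HFD 3, the 1 gene of the 33 with its maximum in an HFD library.

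Of the transcription factors, Otx2, which is required for the formation and upkeep of the plexus, stood at 7.91, 1.87 and 0.726 CPM in Trp 1 to 3, 2.20, 5.35 and 3.38 CPM in IPA 1 to 3, and 1.24, 1.37 and 6.89 CPM in HFD 1 to 3. Msx1, a homeobox factor of dorsal midline tissue, stood at 4.11, 1.87 and 0.504 CPM in Trp 1 to 3, 1.83, 3.67 and 2.29 CPM in IPA 1 to 3, and 1.63, 0.969 and 2.99 CPM in HFD 1 to 3. Otx2 in HFD 3 came second only to Trp 1, although 3 libraries had more Ttr than HFD 3. Lmx1a, a roof plate factor, gave 9 to 50 counts and 0.193 to 0.974 CPM. Its highest library was Trp 1 and its lowest HFD 1.

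Genes shared with the retina and its pigment epithelium were also on the list. Mfrp, a membrane frizzled-related protein, was measured at 24.2, 12.7 and 0.786 CPM in Trp 1 to 3, 6.28, 21.5 and 12.5 CPM in IPA 1 to 3, and 2.96, 2.58 and 10.3 CPM in HFD 1 to 3. Abca4, a retinoid flippase of photoreceptors, stood at 5.53, 2.83 and 0.988 CPM in Trp 1 to 3, 2.40, 4.81 and 4.04 CPM in IPA 1 to 3, and 2.36, 2.18 and 3.11 CPM in HFD 1 to 3. Mfrp spanned 30.8-fold and Abca4 5.60-fold, both highest in Trp 1 and lowest in Trp 3. Rdh5, a retinol dehydrogenase, stood at 9.33, 5.48 and 3.61 CPM in Trp 1 to 3, 4.20, 7.22 and 5.32 CPM in IPA 1 to 3, and 4.18, 3.23 and 8.17 CPM in HFD 1 to 3. Its exons overlap those of Bloc1s1 over 25.6% of their bases, and those of Mfrp overlap C1qtnf5 over 36.7%, so these values can hold reads of the neighbours.

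Among matrix genes, Col8a1, a short-chain collagen of basement membranes, was at 7.27, 3.06 and 0.907 CPM in Trp 1 to 3, 3.58, 6.85 and 5.46 CPM in IPA 1 to 3, and 2.29, 1.96 and 6.58 CPM in HFD 1 to 3. Col9a3, a chain of type IX collagen, was at 18.9, 11 and 9.11 CPM in Trp 1 to 3, 9.56, 16.3 and 12.7 CPM in IPA 1 to 3, and 13.3, 10.2 and 18.2 CPM in HFD 1 to 3. Sulf1, which removes sulfate groups from heparan sulfate, was at 38.1, 29.1 and 26.7 CPM in Trp 1 to 3, 24.5, 33.2 and 32.8 CPM in IPA 1 to 3, and 19.2, 26.8 and 19.5 CPM in HFD 1 to 3. Only Col8a1 of these 3 had a range above 4-fold (8.01-fold), with 2.07-fold for Col9a3 and 1.99-fold for Sulf1. The remaining genes were Calml4, Wdr86, Tmem72, Steap1 and Cab39l. Calml4, a calmodulin-like protein, stood at 6.72, 2.54 and 0.242 CPM in Trp 1 to 3, 2.15, 7.45 and 4.21 CPM in IPA 1 to 3, and 1.48, 1.29 and 3.23 CPM in HFD 1 to 3. Wdr86, a WD-repeat protein, was at 4.40, 1.10 and 0.141 CPM in Trp 1 to 3, 1.33, 3.72 and 1.75 CPM in IPA 1 to 3, and 0.921, 0.545 and 1.83 CPM in HFD 1 to 3. Tmem72, a transmembrane protein, was at 11.8, 2.66 and 0.504 CPM in Trp 1 to 3, 1.98, 7.40 and 4.68 CPM in IPA 1 to 3, and 1.52, 0.848 and 4.84 CPM in HFD 1 to 3. All 3 had their lowest value in Trp 3, with 12, 7 and 25 counts. Steap1, a metalloreductase family member, gave 7 to 94 counts and 0.141 to 1.83 CPM, also lowest in Trp 3. Cab39l, a scaffold of the kinase LKB1 with expression in many brain cells, varied least of the 33, at 65.7, 47.9 and 40.3 CPM in Trp 1 to 3, 50.7, 56.6 and 52.5 CPM in IPA 1 to 3, and 39.4, 39.8 and 52.2 CPM in HFD 1 to 3.

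Over the list, 27 of 33 genes were highest in Trp 1, against 8.92% of the 18690 genes tested, and 24 of 33 were lowest in Trp 3, against 12.1%. The highest and lowest library differed at least 10-fold in 17 of the 33 (51.5%) and in 3.41% of all genes tested. In 17 of the 33, Trp 3 held under 10% of the level in Trp 1. The range stayed below 2-fold in 2 genes, Cab39l and Sulf1. Genes measured in the same libraries are not independent of each other, so these counts describe the 9 libraries.

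**Figure D2:**
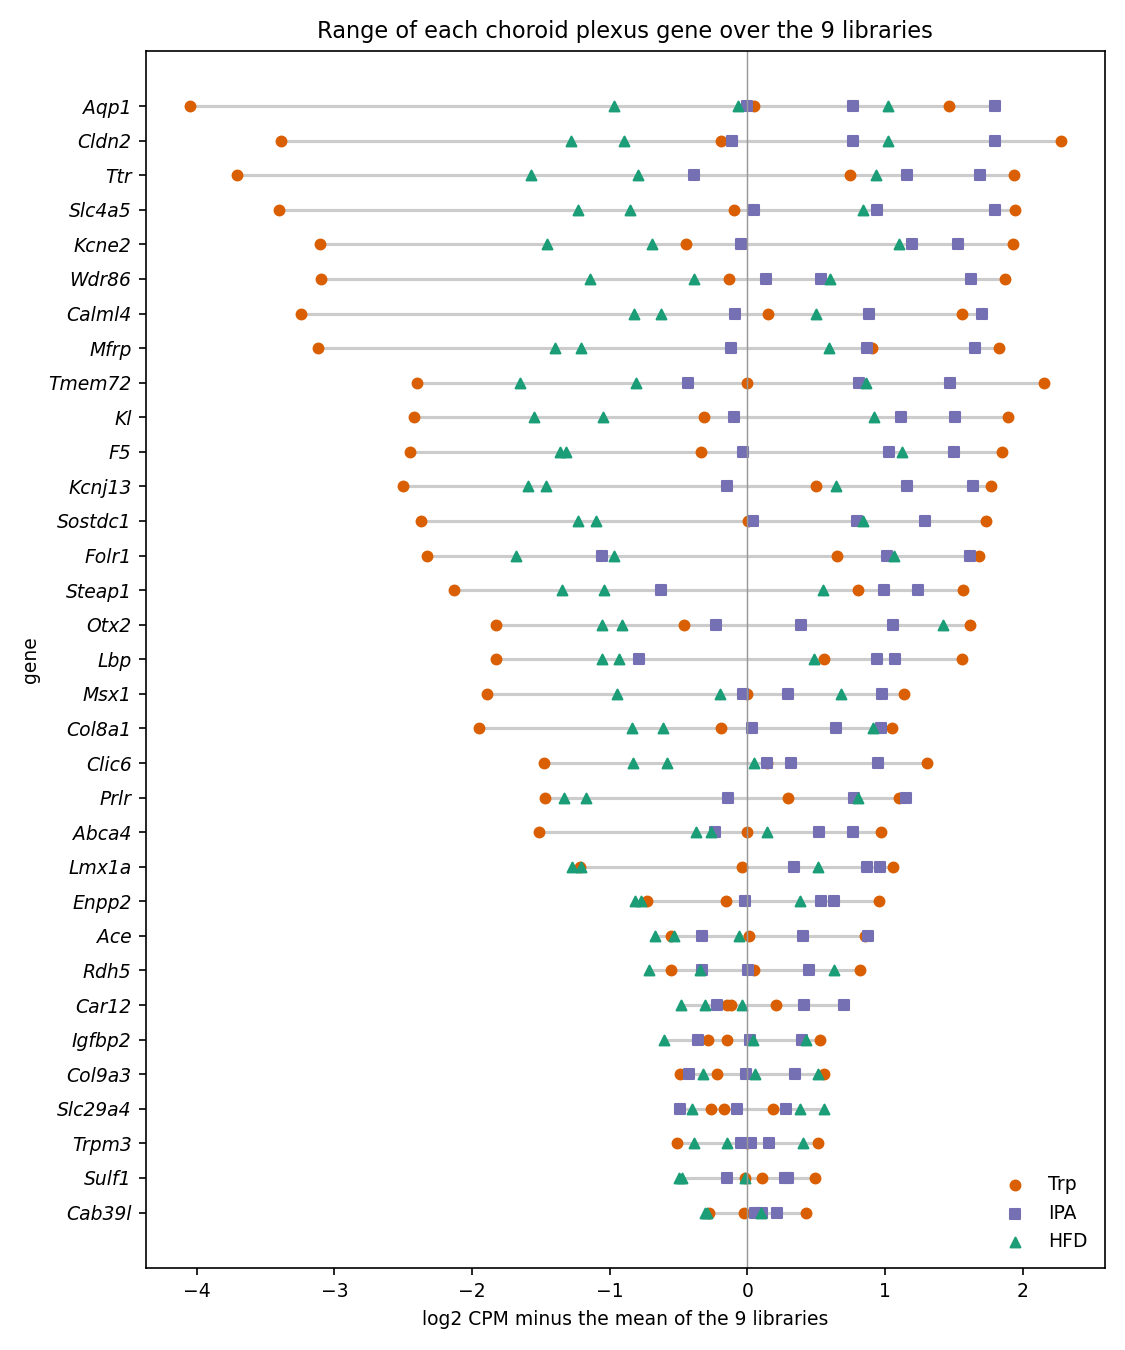
Log2 CPM of each of the 33 choroid plexus genes minus its own mean over the 9 libraries, with genes sorted by the ratio of highest to lowest library. Each point is a library (circles Trp, squares IPA, triangles HFD) and the grey line spans the range, from 57.5-fold for Aqp1 at the top to 1.67-fold for Cab39l at the bottom, with Trp libraries at both ends of most lines.

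The spread within groups was set beside the spread between groups gene by gene. The SD within groups of log2 CPM had a median of 1.24 over the 33 genes and of 0.19 over all genes tested, and all 33 lay above the median of all genes. It was largest for Ttr (1.97), Cldn2 (1.79) and Aqp1 (1.73) and smallest for Cab39l (0.25). Differences between the 3 group means held a median of 16.6% of the variation of the 33 genes and 26.7% of that of all genes tested, where 3 groups of 3 without any difference give 25% on average. Only 5 of the 33 exceeded the median of all genes, namely Sulf1 (54.4%), Car12 (44.4%), Lmx1a (37.2%), Ace (31%) and Cab39l (26.7%). The group held 11.6% of the variation of Ttr. The share rests on single libraries: the median of the 33 was 45.1% without Trp 1, 35.7% without Trp 3, and 8.34% without IPA 2. With fewer libraries, groups without a difference give above 25% on average. The labels hold no record of the dissection, and its part in this spread was not tested.

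**Figure D3:**
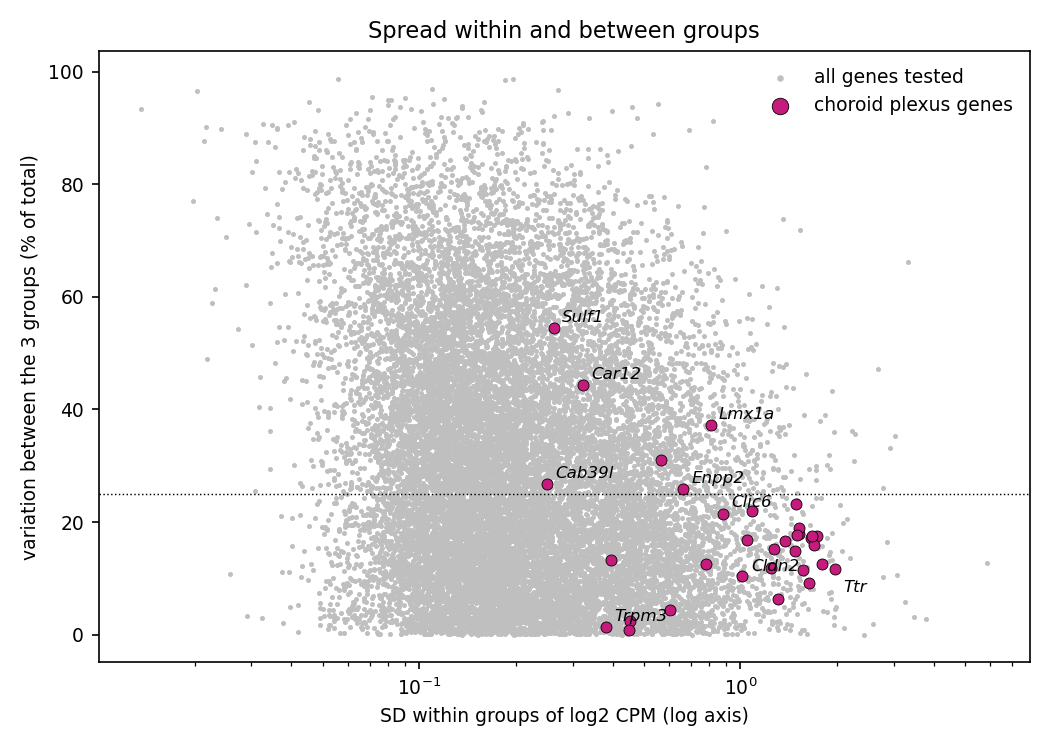
Variation between the 3 group means as a percentage of the total (vertical axis) against the SD within groups of log2 CPM (horizontal log axis), 1 point per gene, grey for all 18690 genes tested and magenta for the 33 choroid plexus genes. The dotted line is the 25% that groups without a difference give on average, and most choroid plexus genes lie to the right and below it, as Ttr with an SD of 1.97 and 11.6% between groups.

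Whether added tryptophan went with a different level of these transcripts was asked by comparing the Trp with the HFD group. None of the 33 passed the quasi-likelihood test of edgeR after Benjamini-Hochberg adjustment over all genes, where 0.342% of all genes passed, and 0 passed with DESeq2 or with limma on FPKM, which kept 26 of the 33. At an unadjusted p under 0.05 there was 1 of 33, against 11.3% of all genes. Ttr averaged 626 ± 633 CPM in Trp and 317 ± 285 CPM in HFD (SD, n = 3 each), with a log2 fold change of 0.98 (SE 1.33, 95% interval -2.24 to 4.20, adjusted p = 0.849). The gene at that unadjusted level was Sulf1, at 0.52 (SE 0.17, 95% interval 0.14 to 0.90, adjusted p = 0.290). The fitted log2 fold change was above 0 in 31 of 33, against 49.5% of all genes, with a median of 0.62 for the 33 and -0.0022 for all genes. The exceptions were Slc29a4, at -0.30 (SE 0.26, 95% interval -0.87 to 0.26, adjusted p = 0.725), and Col9a3. That direction rested on Trp 1, without which the median was -0.23, and it was 1.37 without HFD 3. Without HFD 3 and Trp 3 together, the HFD library with the most and the Trp library with the least Ttr, 2 of 33 passed. These were Steap1 and Cab39l, both higher in Trp, where 775 genes passed in all instead of 64. Because the 2 libraries were picked by their Ttr, leaving them out raises Trp over HFD for genes that follow Ttr by the choice itself. In no gene of the 33 did the 2 groups separate, while 8.06% of all genes were higher and 7.43% lower without overlap.

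The comparison of the IPA with the HFD group asks the same of the bacterial metabolite, and it shares the HFD libraries with the comparison above. Again none of the 33 passed edgeR's test with Benjamini-Hochberg adjustment, where 0.00535% of all genes passed, nor DESeq2, nor limma for the 26 genes it kept. At an unadjusted p under 0.05 there were 2 of 33, against 10.4% of all genes. These were Car12, at a log2 fold change of 0.61 (SE 0.21, 95% interval 0.14 to 1.09, adjusted p = 0.392), and Sulf1, at 0.47 (SE 0.17, 95% interval 0.084 to 0.85, adjusted p = 0.416). Ttr averaged 699 ± 418 CPM in IPA and 317 ± 285 CPM in HFD (SD, n = 3 each), a log2 fold change of 1.14 (SE 1.33, 95% interval -2.09 to 4.37, adjusted p = 0.805). Clic6 was the 1 gene of the 33 whose groups did not overlap, against 7.19% of all genes higher without overlap, and the fit put it at 0.92 (SE 0.68, 95% interval -0.71 to 2.55, adjusted p = 0.679) on the log2 scale. The fitted log2 fold change was above 0 in 31 of 33 (median 0.92), against 48.9% of all genes (median -0.0056). The median was 1.61 without HFD 3 and 0.50 without IPA 2.

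**Figure D4:**
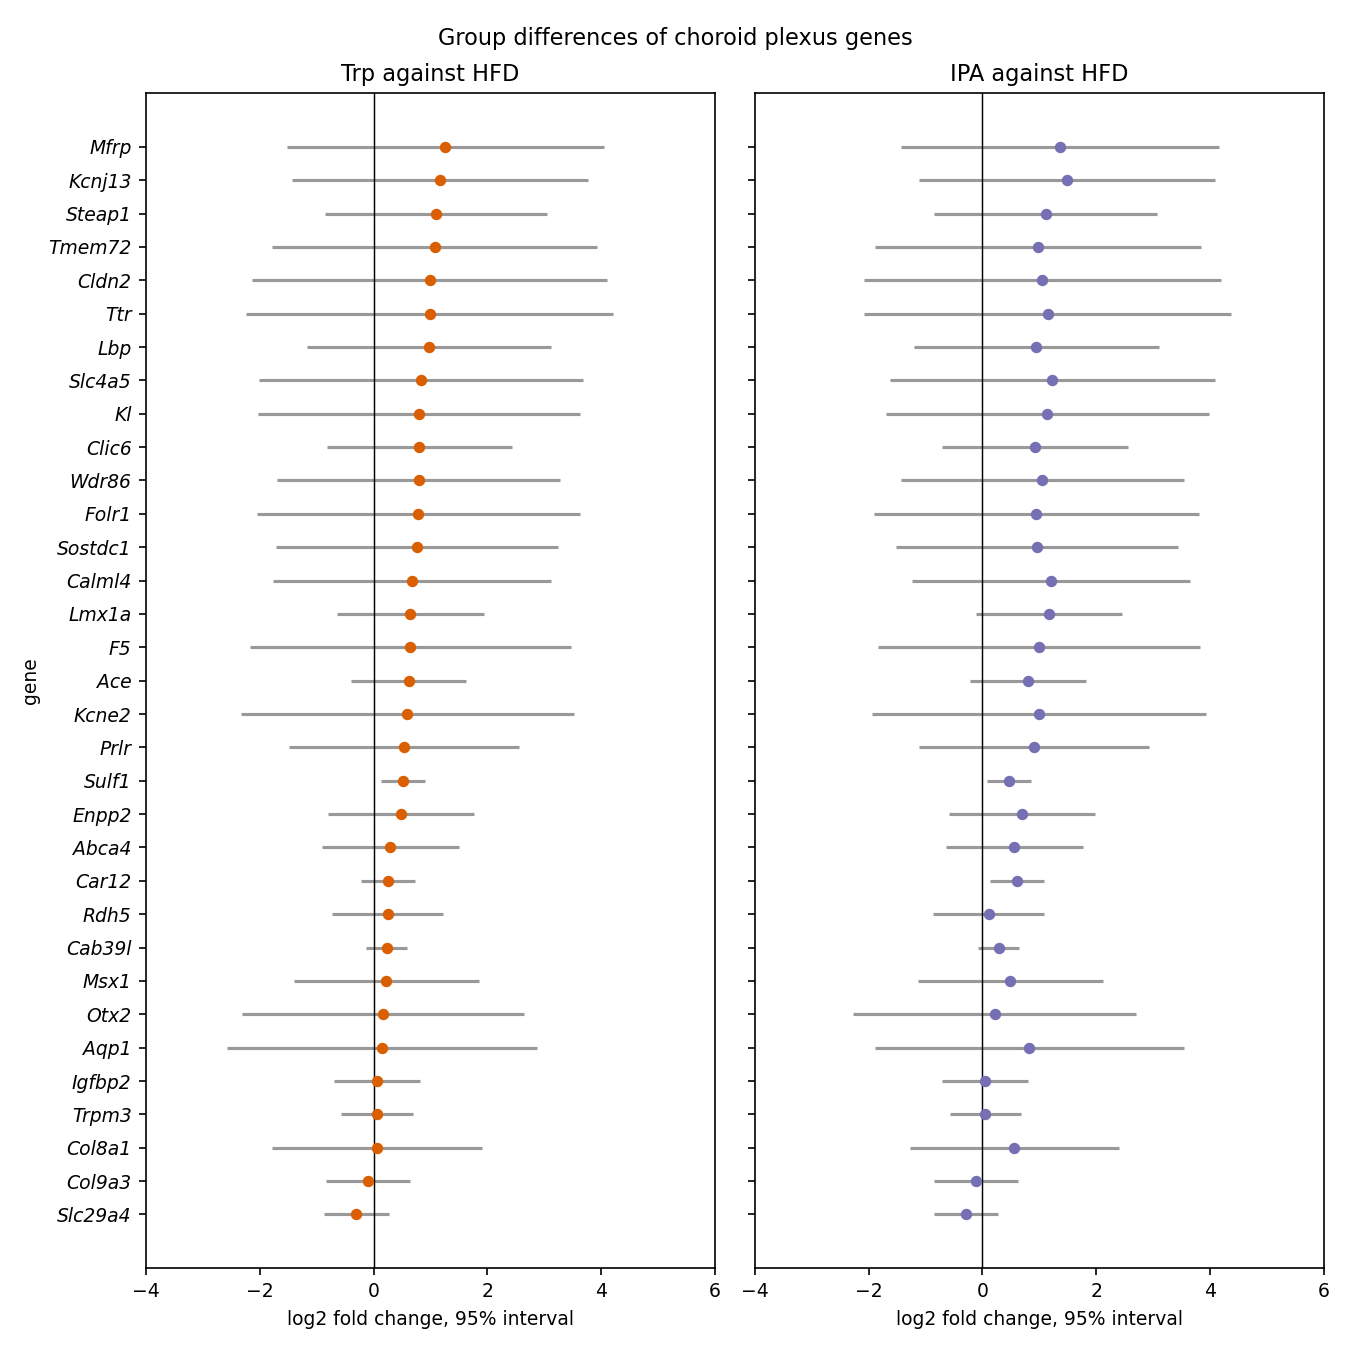
Fitted log2 fold change with its 95% interval for each of the 33 choroid plexus genes, Trp against HFD at left and IPA against HFD at right, sorted by the values for Trp. Most points lie right of 0 and the intervals are wide, as -2.24 to 4.20 for Ttr in Trp against HFD, and none of the 33 passed after adjustment over all genes.

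Between the Trp and IPA groups none of the 33 passed edgeR's test after adjustment, where edgeR called 0% of all genes, nor DESeq2, nor limma for the 26 genes it kept. In edgeR's test 0 of 33 had an unadjusted p under 0.05, against 4.49% of all genes. Ttr had a log2 fold change of -0.16 (SE 1.31, 95% interval -3.35 to 3.03, adjusted p = 0.997), and the median of the 33 was -0.18, with 7 of 33 above 0 against 51.9% of all genes. The 2 groups overlapped in all 33, while 5.61% of all genes were higher and 5.55% lower without overlap. In the test of any difference between the 3 groups, none of the 33 and 0.161% of all genes passed, 2 of the 33 had an unadjusted p under 0.05, and the smallest adjusted p of the 33 was 0.434. The fitted folds compare arithmetic means, which the high libraries dominate. On the mean of log2 CPM, Ttr differed by 0.13 when Trp was set against HFD (two-sided exact permutation p = 1), by 1.30 when IPA was set against HFD (exact p = 0.2) and by -1.16 when Trp was set against IPA (exact p = 0.7), and 3 against 3 libraries cannot give an exact p below 0.1. The 95% intervals of the 33 had a median width of 4.04 log2 units for Trp against HFD, against 0.66 over all genes. For Ttr the interval covers changes in either direction of more than 4-fold, so the absence of a call does not show that the groups had like levels.

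With the log2 CPM of Ttr as a covariate, which compares groups at equal Ttr, none of the other 32 genes passed in any of the 3 comparisons in edgeR's test with Benjamini-Hochberg adjustment. In Trp against HFD the smallest adjusted p in edgeR was 0.158, 4 of the 32 genes had an unadjusted p under 0.05 against 12% of all genes in this fit (0.589% passed after adjustment), and the 32 genes' median log2 fold change was 0.18. In IPA against HFD the smallest adjusted p was 0.516, 3 genes were under 0.05 unadjusted against 8.49% of all genes (0% passed after adjustment), and the median was 0.14. In Trp against IPA it was 0.999, with 1 gene under 0.05 unadjusted against 4.33% of all genes (0% passed after adjustment) and a median of 0.0091. The covariate is itself a gene of the list.

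Counts of the other genes per 1000 counts of Ttr show whether the list kept its proportions. This was done in the 5 libraries with at least 20000 Ttr counts, namely Trp 1, Trp 2, IPA 2, IPA 3 and HFD 3, and for the 19 genes nearest to Ttr in their pattern (a root mean square difference from Ttr under 1 log2 unit over the 9 libraries), both limits being chosen after seeing the values. Among these 5 libraries the proportions varied little for some genes: Folr1 stood at 8.06, 9.02, 9.12, 8.67 and 10.5 per 1000 Ttr counts in that order, and Kcnj13 at 4.84, 4.59, 5.24, 5.43 and 4.44. The 19 genes were picked for nearness to Ttr over libraries that include these 5, so like proportions follow in part from that choice. Trp 2 differed from the other 4 libraries in several genes at once. Kcne2 was at 3.61 (2.89 to 4.47) per 1000 Ttr counts in Trp 2, with an exact 95% interval for counting error only, and at 7.35 to 9.24 in the other 4 libraries. Kl was at 14.8 (13.3 to 16.5) in Trp 2 and 27.1 to 30.5 in the others. F5 was at 4.17 (3.38 to 5.08) in Trp 2 and 7.73 to 10.1 in the others. Cldn2 was at 3.27 (2.58 to 4.09) in Trp 2 and 4.78 to 7.94 in the others. These 4 genes thus had 0.435 to 0.509 times the median of the other 4 libraries, while Mfrp had 1.28 times and Steap1 1.35 times it. Of the 19 genes, 12 were lowest per Ttr count in Trp 2 and 3 were highest there. Over all 32 genes besides Ttr the picture was more mixed, with 12 lowest and 7 highest in Trp 2. All ratios of a library share its Ttr count, so the genes are not independent of each other here.

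**Figure D5:**
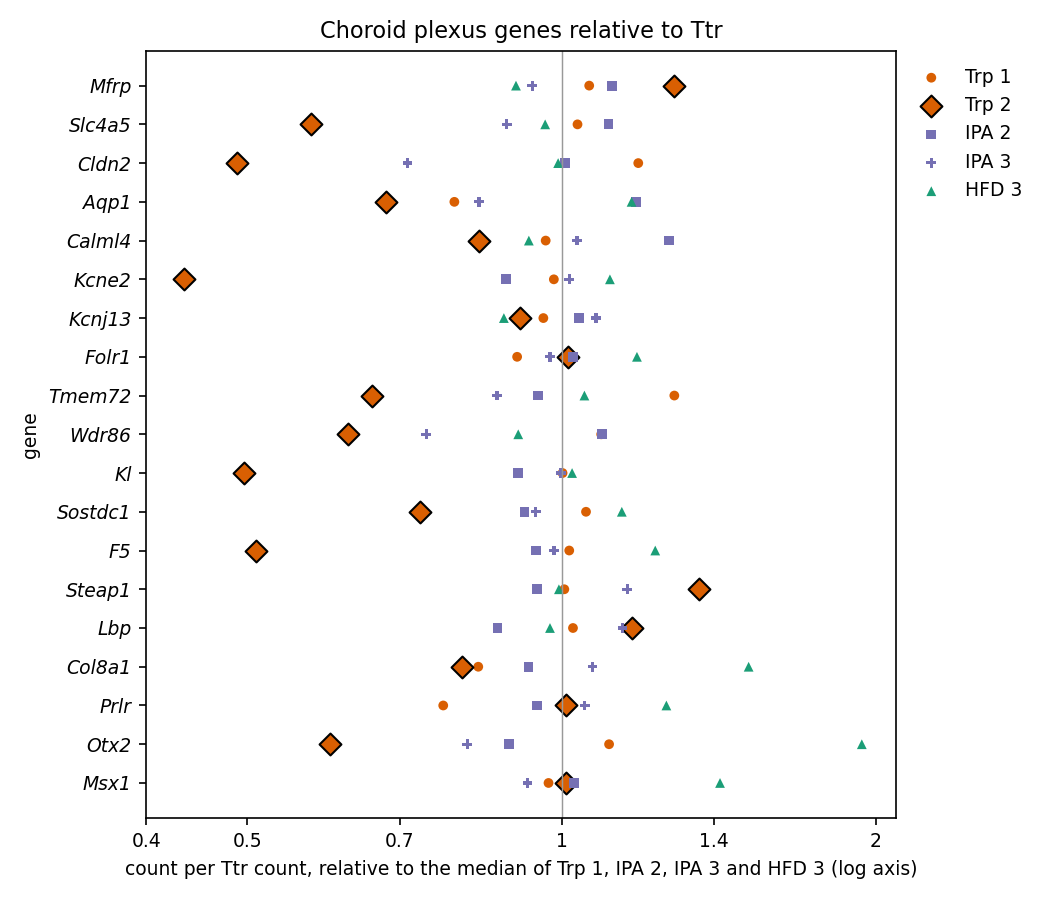
Count of each of 19 choroid plexus genes per Ttr count in 5 libraries, divided by the median of Trp 1, IPA 2, IPA 3 and HFD 3 (log axis), with genes nearest to the Ttr pattern at the top. Each symbol is a library, and the diamonds of Trp 2 lie left of the others in 12 genes, from 0.435 times the median in Kcne2, and right of them in 3.

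Otx2 also differed in its proportion to Ttr between libraries. It stood at 6.14 (5.56 to 6.77) and 3.32 (2.62 to 4.14) per 1000 Ttr counts in Trp 1 and Trp 2, at 4.92 (4.29 to 5.62) and 4.49 (3.78 to 5.29) in IPA 2 and IPA 3, and at 10.7 (9.52 to 12) in HFD 3. HFD 3 was the library with the highest count per Ttr count in 9 of the 19 genes, and it was the 1 HFD library deep enough in Ttr for this measure, so group and library cannot be told apart there. Trp 2 and HFD 3 had the least Ttr of the 5 libraries, at 563 and 642 CPM. A count per Ttr count is higher there for any gene that falls less than Ttr. The counts of genes highest or lowest per Ttr count were not set beside a share over all genes. In Trp 3, where Ttr was lowest, the proportions of genes with a narrow range were far higher, as Cab39l at 1567 per 1000 Ttr counts against 51 in Trp 1.

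Among all 18690 genes tested, 14 of the 20 with the smallest root mean square difference from the Ttr pattern over the 9 libraries were genes of the list, led by Mfrp (0.32 log2 units), Slc4a5 (0.40) and Cldn2 (0.43). Of the 32 members besides Ttr, 23 were within the nearest 100 genes, and the farthest was Sulf1 at rank 1913. Ecrg4, the secreted peptide augurin, was the nearest gene outside the list (0.34), and it was measured at 16.1, 5.96 and 0.504 CPM in Trp 1 to 3, 4.05, 13 and 8.77 CPM in IPA 1 to 3, and 1.65, 1.49 and 9.14 CPM in HFD 1 to 3. The next were Wfdc2, a secreted whey acidic protein (0.49), Prr32 (0.51), Krt18, a keratin of simple epithelia (0.56), and 2900040C04Rik (0.70). Krt18 stood at 3.70, 1.41 and 0.101 CPM in Trp 1 to 3, 0.826, 2.56 and 1.51 CPM in IPA 1 to 3, and 0.899, 0.605 and 1.31 CPM in HFD 1 to 3. Farther out were Wdr72, Acox2, a peroxisomal oxidase, Tc2n, Slc13a4, a sulfate transporter, Lrrc34, Slc28a3, a nucleoside transporter, Sptlc3, of sphingolipid synthesis, Nek5, Drc7, of the motile axoneme, and D630024D03Rik, at 0.74 to 0.87. Slc13a4 was at 9.23, 4.53 and 0.927 CPM in Trp 1 to 3, 2.55, 6.76 and 4.09 CPM in IPA 1 to 3, and 1.88, 1.98 and 8.50 CPM in HFD 1 to 3. None of these 15 genes passed edgeR's test with Benjamini-Hochberg adjustment in any comparison, and their smallest adjusted p was 0.644. Likeness in 9 libraries is a description and was not tested.

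Of 31 further genes of fluid secretion and barrier transport, none passed edgeR's test in any comparison. Their median log2 fold changes were 0.0039 for Trp against HFD and 0.0019 for IPA against HFD. An unadjusted p under 0.05 was found in 4 for Trp and 5 for IPA, each against HFD, and in 1 between Trp and IPA. Over all genes the shares at that level were 11.3%, 10.4% and 4.49% in the same 3 comparisons. The median SD within groups of the 31 genes was 0.24. Slc12a2, the sodium, potassium and chloride cotransporter NKCC1 of the apical membrane, which glia and neurons also express, was measured at 114, 72.4 and 61.8 CPM in Trp 1 to 3, 109, 81.6 and 88.3 CPM in IPA 1 to 3, and 52.3, 62.4 and 116 CPM in HFD 1 to 3. It had its lowest values in HFD 1, HFD 2 and Trp 3, where Ttr was lowest too. Of 26 other choroid plexus genes 24 were tested and none passed in any comparison. An unadjusted p under 0.05 was found in 1 for Trp and 2 for IPA, each against HFD, and in 2 between Trp and IPA, beside the same shares of all genes. The 24 genes had a median SD within groups of 0.52 and median log2 fold changes of 0.15 and 0.36 for Trp and IPA against HFD. Both lists' mean log2 CPM was in the order of Ttr within each group, at 4.10, 3.84 and 3.42 in the Trp libraries (1 to 3), 3.63, 4.01 and 3.81 in the IPA libraries and 3.62, 3.61 and 4.03 in the HFD libraries for the transport genes. The summed transport genes were in that order within no group, at 3428, 3110 and 3122 CPM in Trp 1 to 3, 3565, 3421 and 3559 CPM in IPA 1 to 3, and 3382, 3485 and 3727 CPM in HFD 1 to 3. The summed other choroid plexus genes were in that order within Trp and within IPA but not within HFD, at 338, 374 and 359 CPM in HFD 1 to 3. Of 21 genes of thyroid hormone and retinoid handling none passed. An unadjusted p under 0.05 was found in 3 for Trp and 4 for IPA, each against HFD, and in 1 between Trp and IPA, beside the same shares of all genes. Slco1c1, a thyroxine transporter of barrier endothelium and plexus, was at 33.8, 28.3 and 33.2 CPM in Trp 1 to 3, 26.4, 31.8 and 39.2 CPM in IPA 1 to 3, and 29.8, 39.1 and 39.1 CPM in HFD 1 to 3, a narrow range beside that of Ttr.

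Ependymal cells line the ventricles next to the plexus, and their motile cilia genes were counted beside these results. The 21 tested genes of that list summed to 74.7, 60.6 and 38.2 CPM in Trp 1 to 3, 50.1, 74.9 and 64.2 CPM in IPA 1 to 3, and 42.9, 44.1 and 48.6 CPM in HFD 1 to 3, in the order of Ttr within Trp and within IPA but not within HFD, and their median SD within groups was 0.45. Foxj1, the regulator of ciliogenesis, was at 8.88, 7.30 and 5.99 CPM in Trp 1 to 3, 5.08, 10.5 and 8.51 CPM in IPA 1 to 3, and 4.24, 5.02 and 6.15 CPM in HFD 1 to 3. IPA 2, Trp 1 and IPA 3 were the highest libraries of Foxj1, as of Ttr. In Trp against HFD 1 of the 21 passed edgeR's test, where 0.342% of all genes did. It was Tekt4, a tektin of the axoneme, which rose with a log2 fold change of 2.24 (SE 0.27, adjusted p = 0.00568). Tekt4 stood at 4.03, 4.09 and 3.41 CPM in Trp 1 to 3, 2.68, 2.02 and 1.84 CPM in IPA 1 to 3, and 0.578, 0.706 and 1.16 CPM in HFD 1 to 3, with the 3 Trp libraries above all others and Trp 3 not far below Trp 1, where Ttr differed 50.1-fold between these 2. None of the 21 passed in IPA against HFD or in Trp against IPA, with an unadjusted p under 0.05 in 8 and 1 of them, against 10.4% and 4.49% of all genes. The part of ependyma in the choroid plexus values was not tested.

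Summed stroma genes moved with Ttr inside the groups. The 16 tested stroma and fibroblast genes summed to 129, 103 and 64.8 CPM in Trp 1 to 3, 66.4, 100.5 and 73.3 CPM in IPA 1 to 3, and 90.3, 59.5 and 174 CPM in HFD 1 to 3, in the order of Ttr within each of the 3 groups, with HFD 3 the highest of all 9. Their mean log2 CPM, which weights the genes alike, was 1.69, 1.72 and 1.12 in the Trp libraries (1 to 3), 1.13, 1.20 and 0.78 in the IPA libraries and 1.79, 1.15 and 2.52 in the HFD libraries, in that order only within HFD. Dcn, decorin of fibroblasts, was at 8.92, 5.79 and 10.3 CPM in Trp 1 to 3, 7.83, 5.10 and 2.86 CPM in IPA 1 to 3, and 14.6, 5.11 and 18 CPM in HFD 1 to 3. Plvap, of fenestrated endothelium such as that of the plexus, was at 5.77, 6.27 and 6.35 CPM in Trp 1 to 3, 5.61, 6.41 and 4.87 CPM in IPA 1 to 3, and 5.72, 4.90 and 5.13 CPM in HFD 1 to 3, nearly level where Ttr spanned 50.1-fold. Of 6 genes of that endothelium 4 were tested, summing to 136 to 153 CPM in Trp, 132 to 165 CPM in IPA and 148 to 159 CPM in HFD. The 10 tested genes of border macrophages summed to 14.4 to 17.4 CPM in Trp, 9.28 to 14 CPM in IPA and 13 to 19.997 CPM in HFD. None of these 3 lists held a gene that passed edgeR's test in any comparison. In IPA against HFD, 7 of the 16 stroma genes and 4 of the 10 macrophage genes had an unadjusted p under 0.05, against 10.4% of all genes, and 1 of 16 and 1 of 10 had a log2 fold change above 0. In Trp against HFD, 2 of the 16 stroma genes and 0 of the 10 macrophage genes were under 0.05 unadjusted, against 11.3% of all genes. The endothelial list had 0 of 4 for Trp and 0 of 4 for IPA. The part of stroma in the choroid plexus values was not tested.

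Transcripts of some other regions also followed Ttr inside the groups. The mean log2 CPM of 10 dentate granule cell genes was 4.07, 2.85 and 2.496 in the Trp libraries (1 to 3), 2.85, 3.48 and 2.96 in the IPA libraries and 3.52, 2.71 and 4.20 in the HFD libraries, in the order of Ttr within each group, while their sum was in that order only within Trp. The 15 genes of thalamus and habenula summed to 409, 310.4 and 273 CPM in Trp 1 to 3, 387, 303 and 214 CPM in IPA 1 to 3, and 298, 256 and 663 CPM in HFD 1 to 3, in the order of Ttr within Trp and within HFD but not within IPA. The summed levels were 2057 to 2919 CPM in Trp, 2899 to 3859.7 CPM in IPA and 897 to 2927 CPM in HFD for 14 striatal genes and 80.4 to 244 CPM in Trp, 64.1 to 142 CPM in IPA and 62.7 to 130.3 CPM in HFD for 13 tested hypothalamic genes. They were 311 to 366 CPM in Trp, 339 to 396 CPM in IPA and 341 to 398 CPM in HFD for 10 dentate granule cell genes and 439 to 520.3 CPM in Trp, 456 to 503 CPM in IPA and 478 to 552 CPM in HFD for 11 tested genes of the CA fields. Pmch, the melanin-concentrating hormone gene of the hypothalamus, was at 11.9, 77.6 and 131 CPM in Trp 1 to 3, 56.8, 4.31 and 0.520 CPM in IPA 1 to 3, and 22.2, 1.13 and 61.4 CPM in HFD 1 to 3, highest in Trp 3, where Ttr was lowest. Oligodendrocytes also express Enpp2, and 10 of their genes summed to 7749 to 9213 CPM in Trp, 8548 to 10199 CPM in IPA and 9044 to 15471 CPM in HFD, highest in HFD 3, and red cell genes to 234 to 383 CPM in Trp, 248 to 399 CPM in IPA and 571 to 2213 CPM in HFD over 6 genes. The medians of the SD within groups were 0.63 for striatum, 0.62 for thalamus and habenula, 0.51 for hypothalamus, 0.58 for dentate granule cells, 0.24 for the CA fields, 0.31 for oligodendrocytes and 0.68 for red cells, beside 1.24 for the 33 choroid plexus genes. No gene of these lists passed edgeR's test in any comparison. All 6 red cell genes had lower fitted levels both in Trp and in IPA than in HFD, with median log2 fold changes of -1.83 and -1.90, and 5 and 6 of them had an unadjusted p under 0.05, against 11.3% and 10.4% of all genes. The counts at that level were 0 of 14 striatal genes, 1 of 15 thalamic and habenular genes, 3 of 13 hypothalamic genes, 2 of 10 dentate genes, 1 of 11 CA field genes and 3 of 10 oligodendrocyte genes in Trp against HFD. They were 2 of 14 striatal genes, 1 of 15 thalamic and habenular genes, 3 of 13 hypothalamic genes, 1 of 10 dentate genes, 3 of 11 CA field genes and 2 of 10 oligodendrocyte genes in IPA against HFD. The part of any of them in the choroid plexus values was not tested.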

How the data were processed

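Polyadenylated RNA of 9 mice was sequenced after capture on oligo(dT) beads, per the labels' protocols. Per the submitters' processing notes, the build was mm10 and StringTie 2.1.3b was used, and the aligner, annotation and strand setting were not given in the sources used here. The authors deposited whole-number counts per gene and library, unscaled, and FPKM, scaled by gene length and depth, in 1 table. No per-sample column was left unmapped. Their own fold changes and p-values and the table's coordinates were not used here.

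The counts went into edgeR 4.0.16 (R 4.3.3): filterByExpr (minimum count 10), TMM scaling, and a robust quasi-likelihood fit of 1 mean per group to 9 libraries. Tests were two-sided, with Benjamini-Hochberg adjustment over 18690 genes and a threshold of 0.05. Log2 CPM used a prior count of 2. The labels give 3 mice per group and no pairing, batch or date, so p-values measure the spread between these samples. Alternatives used DESeq2 1.42.0 and limma 3.58.1 on FPKM, other scalings and filters, and left-out libraries. The procedure was tested on simulated counts. Figures used Python 3.11.15 and matplotlib 3.10.9. Promoters came from RefSeq (GRCm38.p6), and exon overlaps from GENCODE M21. The members, the 14 companion lists of 215 genes and the tests were chosen with earlier results of these data known. All members are named. Other genes named are the 15 nearest to Ttr, up to 3 per companion list with the smallest p or its first marker, and 9 further markers, 1 of which is not reported here.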

Additional observations from a re-analysis of the deposited data

How the results depend on the processing

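The count of choroid plexus genes passing stayed at 0 in all 3 comparisons under DESeq2, under upper quartile and RLE scaling, with low counts kept, under limma on FPKM (26 of the 33 tested), in a fit of 6 libraries, with Ttr as a covariate, and without any 1 library. Without HFD 3 and Trp 3, the highest HFD and the lowest Trp library of Ttr, 2 passed in Trp against HFD, Steap1 (log2 fold change 2.42, edgeR adjusted p = 0.0287) and Cab39l (0.52, adjusted p = 0.0361), where 775 genes passed in all instead of 64. There the median of the 33 log2 fold changes was 1.86, the median share between groups 59% and the median SD within groups 0.71. Groups without a difference give a larger share on average when fewer libraries are left. The choice of these 2 libraries by their Ttr itself raises Trp over HFD for genes that follow Ttr. Leaving out 1 library gave medians of -0.23 to 1.37 for Trp against HFD, 0.50 to 1.61 for IPA against HFD and -1.08 to 0.20 for Trp against IPA, a share between groups of 8.34% to 45.1% and an SD within groups of 0.87 to 1.34. On log2 FPKM, which kept 26 of the 33 genes, the SD was 0.72 with a pseudocount of 0.5 and 0.95 with 0.1. The log2 fold change of Ttr turned round for Trp against HFD without Trp 1 (-0.11), and for Trp against IPA without IPA 2 (0.31), without Trp 3 (0.41), and without HFD 3 and Trp 3 (0.41). Leaving out 1 library gave Ttr -0.11 to 2.03 for Trp against HFD and -1.25 to 0.41 for Trp against IPA. Clic6 turned round for Trp against HFD without Trp 1 (-0.047). Leaving out 1 library gave Clic6 -0.047 to 1.25, and leaving out HFD 3 and Trp 3 together gave it 1.54. The cause of these moves was not tested. Over all genes, Trp against HFD gave 64 calls, and 288 with DESeq2, 97 with low counts kept, 110 with Ttr as a covariate, 8 in the fit of 6 libraries and 13 to 323 without 1 library. IPA against HFD gave 1 call, and 170 with DESeq2, 6 with low counts kept, 2 in the fit of 6 libraries, 0 to 52 without 1 library and 247 without HFD 3 and Trp 3. Trp against IPA gave 0 calls and at most 15, with DESeq2. The test of any difference gave 30 calls, and 72 with low counts kept, 1 with the replicate block, 3 to 167 without 1 library and 439 without HFD 3 and Trp 3. Libraries of the same number did not deviate together (r across genes -0.20 to 0.048 over 9 pairs). Such correlations show no sign of pairing by number, but they cannot exclude that libraries of the same number shared a step. With the replicate number as a block 0 of the 33 passed in each comparison, with a median of 0.53 for Trp against HFD, and 23 genes passed in all.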
